A study of Mus musculus with 4 samples.

Results

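Clustered histone genes are the genes of the linker histone H1 and the core histones H2A, H2B, H3 and H4 that sit side by side in the genome. They were taken as all genes whose symbol in the deposited tables begins with Hist1h, Hist2h, Hist3h or Hist4h. This gave 68 of 22096 genes, or 75 of 28107 transcript rows: 6 H1, 18 H2A, 19 H2B, 12 H3 and 13 H4 genes. The mouse clusters lie on chromosome 13 (Hist1, 54 genes), chromosome 3 (Hist2, 10 genes), chromosome 11 (Hist3, 3 genes) and chromosome 6 (Hist4, 1 gene) on the mm9 genome build. All 68 had a row of at least 300 bases, the length from which the FPKM of a gene's rows were summed. FPKM is the number of sequenced fragments per length of transcript and per depth of the library, so levels can be compared between genes.

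RNA was sequenced from whole spinal cord of mice at postnatal day 8, in a series that concerns the chromatin remodeler CHD7 and the timing of myelination. The conditional knockout (cKO) group had 2 libraries of genotype Chd7f/f; Olig1-cre, in which the Olig1 promoter, active in cells that become oligodendrocytes, drives Cre. The control group had 2 libraries of genotype Chd7f/+; Olig1-cre, so the controls also carried Cre and a floxed allele. The strain background of both groups is given as mixed. The labels number the 2 libraries of a group as replicates and do not say that each came from its own animal. Sex-linked RNA, given below, shows that the 2 cKO libraries were not made from the same animal, while for the controls the spread between libraries, on which the p-values rest, may be technical. The cord also holds many cells outside that lineage.

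Clustered histone genes are transcribed mainly while DNA is copied, and most of their mRNAs end in a short stem-loop instead of a poly(A) tail. The stem-loop binding protein SLBP and the U7 particle cut the transcript just after that stem-loop. Some of these genes also give polyadenylated transcripts that run past the stem-loop, above all in cells that have stopped dividing. The library kit named in the labels, TruSeq RNA, captures RNA by its poly(A) tail, so the levels here describe mostly the polyadenylated forms.

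The stem-loops of the genes that the results turn on show how alike these transcript ends are. The capitals mark the paired arms of the stem, with the 4-base loop between them. The loop, 5 flanking bases before the stem-loop and 4 after it are in lower case. They were read as DNA letters in the direction of transcription from the GENCODE M21 transcripts of the GRCm38 build.
Hist1h1c: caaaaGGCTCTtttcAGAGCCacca
Hist3h2a: ccaaaGGCTCTtttcAGAGCCaccc
Hist2h2ac: aaaaaGGCTCTttttAGAGCCacca
Hist3h2ba: ccaaaGGCTCTtttcAGAGCCacct
Hist1h2bg: ccaaaGGCTCTtttcAGAGCCaccc
Hist2h3c2-ps: acaaaGGCTCTtttcAGAGCCacca
Hist1h4i: ttaaaGGCCCTttttAGGGCCacca
Hist4h4: acaaaGGCCCTtttcAGGGCCcaca
A stem-loop was searched as GGNNCTNNNNAGNNCC on the transcript strand, with both 6-base arms fully paired, within 100 bases after the stop codon. Of 67 histone genes matched to a transcript, 46 held one, against 8 of 20912 other genes (0.0383%). Only 52 of the 67 had at least 16 bases of annotated sequence after the stop codon, which is the length of the stem-loop. The arm GGCTCT was in 34 genes, and the arm GGCCCT was in 10, all of them H4 genes. The loop was tttc in 35 genes, and the stem-loop began a median of 31 bases after the stop codon (range 21 to 58). No stem-loop was found in the annotated transcripts of Hist1h2bc and Hist2h2be.

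The 4 libraries differed in depth and in cell content. Depth relative to the shallowest library, read from the constant ratio of deposited coverage to FPKM, was 2.22 and 3.19 in cKO and 2.07 and 1.0 in control. Across genes, log2 levels correlated at 0.990 between the cKO libraries and at 0.986 between the control libraries. Chd7 was at 2.52 and 3.38 FPKM in cKO and at 3.52 and 3.12 FPKM in control, with overlapping groups (limma adjusted p = 0.657), and the files do not show which part of the gene was floxed. All 11 Hox genes that mark positions along the cord were measured above the level limit given below, with sums of 274.1 and 252.5 FPKM in cKO and 208.5 and 245.9 FPKM in control. By limma 2 of them rose, Hoxc9 (adjusted p = 0.00758) and Hoxd10 (adjusted p = 0.0160), calls lost in 5 and 7 of 16 alternatives, and 0 fell, while 4 were higher and 0 lower at an unadjusted p under 0.05. In all, 10 of the 11 fold changes were above 0. Xist, expressed from the inactive X chromosome, was at 19.6 and 0.233 FPKM in cKO and at 55.6 and 51.8 FPKM in control, while the Y-linked Ddx3y was at 0.195 and 11.6 FPKM in cKO and at 0.144 and 0.0720 FPKM in control. The cKO 2 library thus carried Y-linked RNA and almost no Xist, unlike the other 3, and the groups were not matched for sex. Control 1 held the highest sum of 8 meningeal and fibroblast markers (277.1 FPKM, against 36.1 to 61.2 in the other libraries), and control 2 the highest sum of 9 erythroid and other blood markers (120.6 FPKM, against 5.22 to 18.4). No listed marker of either type was at 0 in all 4 libraries.

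Most clustered histone genes were listed at very low levels. Of the 68, 17 were listed at 0 in all 4 libraries, 19 were above 0 in every library, and 9 reached a mean of 1 FPKM, the level from which genes were tested. Among the 17 were Hist1h2ap and Hist2h2aa2, which had no row marked OK in all 4 libraries, so their 0 is not a measurement. Hist2h3c1 and Hist1h4n, also among the 17, had 1 of 2 rows not marked OK. Hist1h2ao and Hist2h2aa1 were listed as 2 copies each, and all 4 of these genes overlap another member. A listed 0 thus need not mean that a gene was silent. The 9 tested were Hist1h1c of the H1 class, Hist3h2a and Hist2h2ac of H2A, Hist3h2ba, Hist1h2bc, Hist2h2be and Hist1h2bg of H2B, Hist2h3c2-ps of H3 and Hist1h4i of H4. A further 5 had a mean between 0.5 and 1 FPKM, and just below the limit were Hist1h2ba at 0.868, Hist1h1e at 0.855 and Hist1h4h at 0.768 FPKM. At this low end a level stands for a few fragments: in members with rows of 300 to 600 bases, the lowest level above 0 corresponded to between 84.9 and 96.1 sequenced bases, depending on the library.

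**Figure D1:**
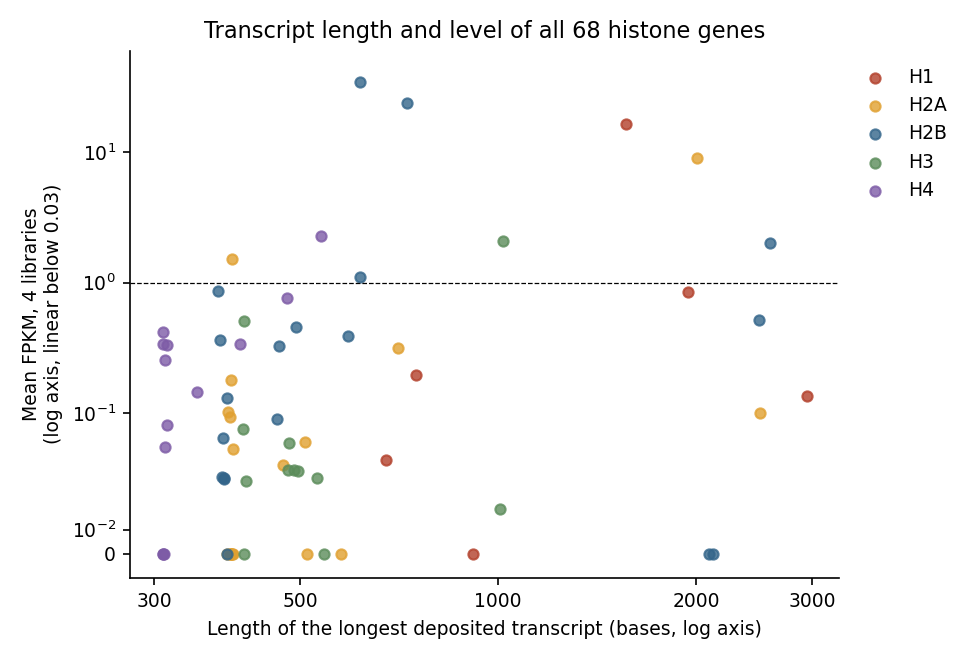
Mean FPKM over the 4 libraries (log axis, linear below 0.03) against the length in bases of the longest deposited transcript (log axis) for all 68 clustered histone genes, 1 point a gene, coloured by class; the dashed line is at 1 FPKM. Of the 9 genes above the line, 7 have a transcript longer than 600 bases.

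Level went with the length of the deposited row. The 18 genes with a row longer than 600 bases included 7 of the 9 at 1 FPKM or more and held sums of 106.0 and 86.9 FPKM in cKO and 77.9 and 94.6 FPKM in control. The 50 genes with rows of 300 to 600 bases held 7.14 and 10.1 FPKM in cKO and 8.89 and 16.5 FPKM in control. Split by the GENCODE annotation, the 23 genes whose transcript ran more than 100 bases past the stem-loop had a median of 0.317 FPKM, and 6 of them reached 1 FPKM. The 23 whose transcript ended within 100 bases had a median of 0.0397 FPKM, and 1 of them, Hist2h2ac, reached 1 FPKM. The deposited row and the GENCODE transcript can differ in length: 312 against 2863 bases for Hist4h4 and 348 against 1630 for Hist2h4. For Hist1h2bq the deposited row is the longer, 2121 against 1254 bases. The GENCODE split thus sets transcript ends beside FPKM counted on rows that may not reach them. These splits describe annotation and level only and were given no test.

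Summed over all members, clustered histone RNA did not separate the groups. The sum was 113.2 and 97.0 FPKM in cKO and 86.8 and 111.1 FPKM in control (mean 105.1 ± 11.4 in cKO and 98.9 ± 17.2 in control, SD, n = 2 each). The 2 groups overlapped, with a control library between the cKO libraries. Without Hist1h1c the sum was 86.1 and 76.3 FPKM in cKO and 77.7 and 102.3 FPKM in control, also overlapping.

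**Figure D2:**
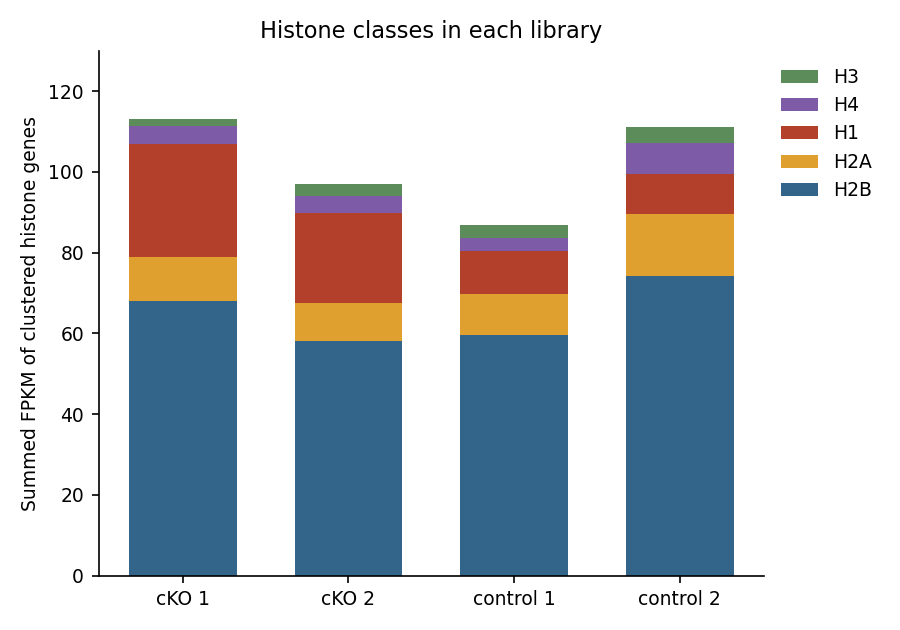
Summed FPKM of the clustered histone genes in each library (linear axis from 0), stacked by class, with the 2 cKO libraries left of the 2 control libraries. The H1 layer is 27.9 and 22.2 FPKM in cKO and 10.6 and 9.86 FPKM in control, while H2B is the thickest layer in every library.

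By class, H1 was the one whose libraries separated with cKO above. The H1 sum was 27.9 and 22.2 FPKM in cKO and 10.6 and 9.86 FPKM in control, and Hist1h1c alone made up 97.0% and 93.3% of it in cKO and 85.8% and 88.8% in control. H2B, the most abundant class, stood at 67.996 and 58.2 FPKM in cKO and 59.5 and 74.3 FPKM in control. H2A stood at 10.9 and 9.34 FPKM in cKO and 10.3 and 15.2 FPKM in control. Both of these classes overlapped between the groups. H3 was at 1.85 and 2.91 FPKM in cKO and 3.06 and 3.86 FPKM in control, with both cKO libraries below both controls. H4 was at 4.50 and 4.31 FPKM in cKO and 3.35 and 7.85 FPKM in control, where control 1 was lowest and control 2 highest. In H2A, H2B, H3 and H4 alike the highest sum was in control 2, the shallowest library and the one with the most haemoglobin RNA.

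Among the 9 genes tested, 2 rose in cKO (Hist1h1c and Hist2h2be) and 1 fell (Hist2h2ac) by limma at an adjusted p under 0.05. Over all 12913 genes, 4.13% rose and 6.54% fell. A level in bulk cord cannot tell fewer cells of a type from less RNA per cell. Both cKO libraries lay above both controls for 2 members, Hist1h1c and Hist2h2be, and below both for 3, Hist2h2ac, Hist1h2bg and Hist2h3c2-ps, while 24.3% of all genes lay above and 29.3% below. A separation of at least 1.5-fold held for 1 member above, Hist1h1c, and for 0 below, against 0.991% and 2.84% of all genes. The median log2 fold change of the 9 was 0.0013, and that of all genes tested was -0.0028. The 9 passed the level limit partly through the group in which they were higher, so they do not speak for the 59 genes that were not tested.

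**Figure D3:**
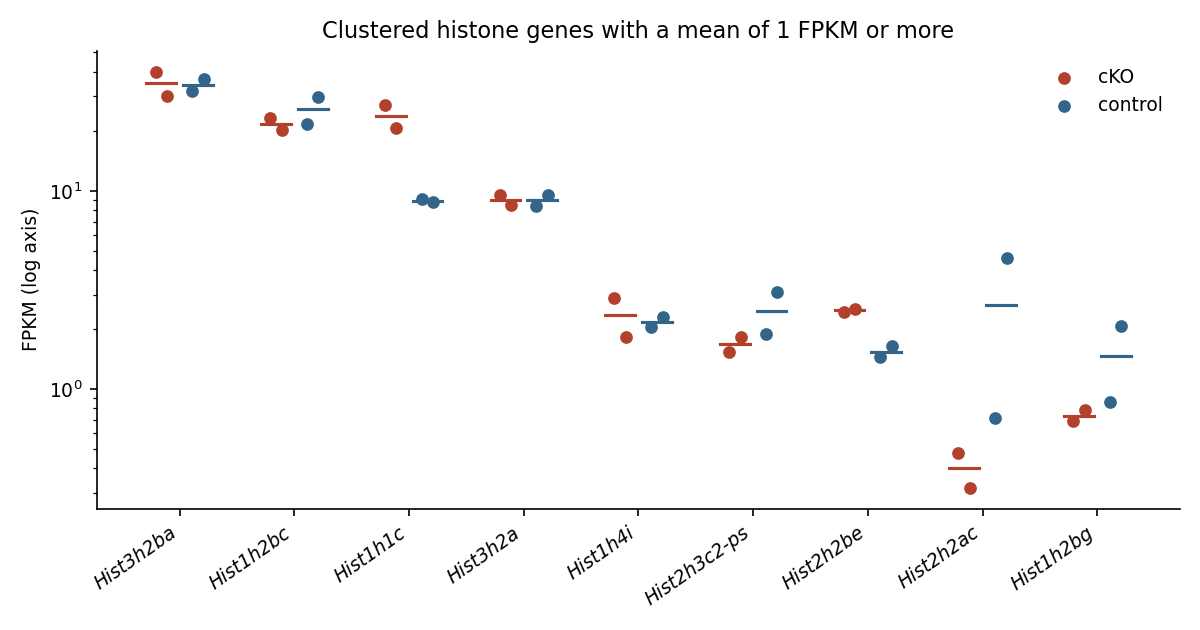
FPKM (log axis) of the 9 clustered histone genes with a mean of at least 1 FPKM, 1 point a library and a bar at the group mean, with cKO left of control for each gene. Hist1h1c is the one gene whose cKO points stand more than 1.5-fold above its control points.

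**Figure D4:**
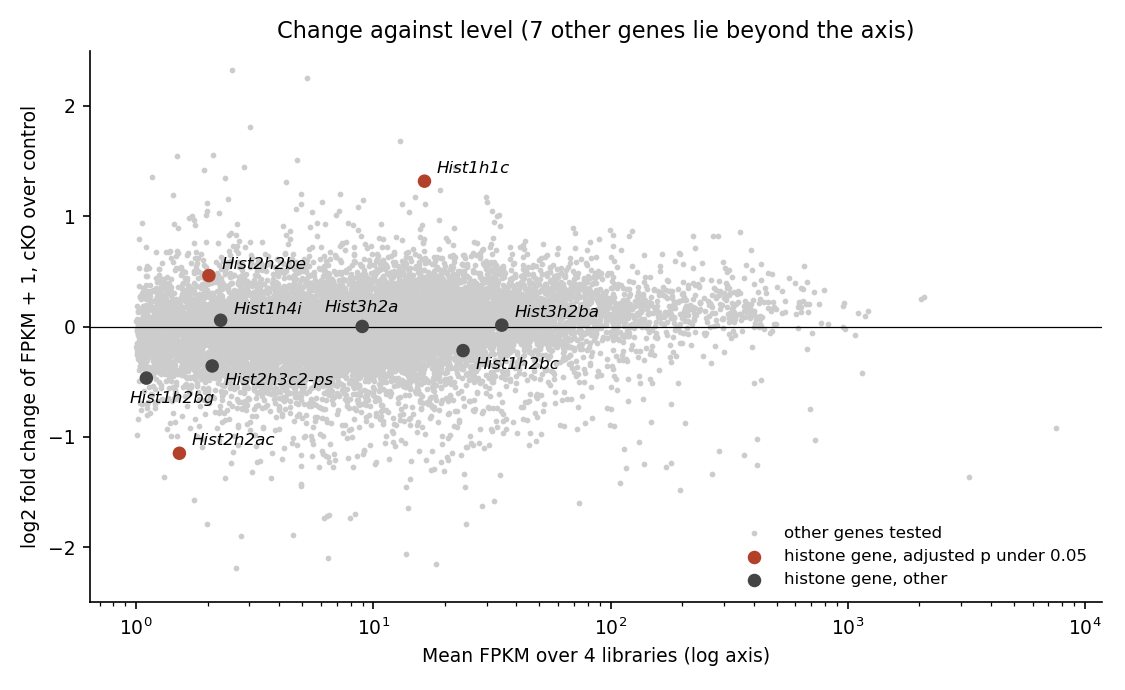
Log2 fold change of FPKM + 1, cKO over control, against the mean FPKM over 4 libraries (log axis) for the 12913 genes tested; clustered histone genes are the large points, red where the limma adjusted p was under 0.05. Hist1h1c lies at 1.32 among the highest points, while the other members lie between -1.15 and 0.46. The axis stops at 2.5 in either direction and leaves out 7 other genes.

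Hist1h1c, which encodes a linker histone that binds DNA between nucleosomes, had the largest rise of the 9. It was measured at 27.1 and 20.7 FPKM in cKO and at 9.06 and 8.75 FPKM in control. The groups were far apart, with the lower cKO library 2.29-fold above the higher control, while the 2 controls were nearly equal. The means were 23.9 ± 4.50 FPKM in cKO and 8.91 ± 0.221 FPKM in control (SD, n = 2 each), a 2.68-fold difference. On the log2(FPKM + 1) scale the change was 1.32 ± 0.16 (SE; 95% interval 1.0 to 1.64; limma adjusted p = 1.47e-07), which ranked 15 from the top by size among the 12913 genes. The mean depth over the transcript, the deposited coverage, was 43.1 and 47.4 in cKO and 13.5 and 6.27 in control, so this value rests on many fragments in each library. The call passed narrowly with no filter on low values (limma adjusted p = 0.0479) and with all rows summed (0.0395). In those fits the spread was pooled over genes less strongly (4.11 and 4.15 prior degrees of freedom, against 36.3). The call was lost where single transcript rows were fitted in place of gene sums (limma adjusted p = 0.0874 at the same fold change), a fit in which 5 genes rose over all. It held in the other 15 alternatives, where the log2 fold change ran from 1.13 without cKO 1 to 1.503 without cKO 2.

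The gene lies at chr13:23830676-23832236 on mm9, 1561 bases as deposited in a single row. Its GENCODE transcript runs 840 bases past the stem-loop shown above. The RefSeq promoter of Hist1h1c, where the gene is called H1f2, is given because this is the member with the largest change. It lies on the plus strand at chr13:23738557-23738856 of GRCm38.p6, runs from 250 bases before the start to 50 after it, and has its motif matches in capitals.
Hist1h1c promoter: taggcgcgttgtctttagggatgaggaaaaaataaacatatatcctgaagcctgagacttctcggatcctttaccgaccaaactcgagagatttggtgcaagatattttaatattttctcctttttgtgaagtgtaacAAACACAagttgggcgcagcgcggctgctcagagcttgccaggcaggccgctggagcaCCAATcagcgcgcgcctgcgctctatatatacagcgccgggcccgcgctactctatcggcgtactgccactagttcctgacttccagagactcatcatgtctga
The 4 motifs were searched on both strands in windows of this size for the 62 members that the RefSeq table holds. AAACACA, the H1 box known from H1 promoters, lay 112 bases before the start of Hist1h1c, and CCAAT, the motif bound by NF-Y, lay 54 bases before it. AAACACA was found in 5 of 6 H1 promoters and in 9 of 62 members (14.5%), against 7.17% of 32788 other promoters. CCAAT was found in 85.5% of members and 37.3% of others: in all H1, H2A, H2B and H3 promoters held, but in 3 of 12 for H4. TATAAA was found in 56.5% of members and 13.5% of others. TTTGCAT, part of the octamer that Oct factors bind, was found in 24.2% of members and 4.59% of others, with 7 in H2A, 7 in H2B and 1 in H4. No 2 of these motifs contain one another, and a match is a description of the sequence only.

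The other 5 H1 genes were near the floor. Hist1h1e, another somatic linker histone, was at 0.595 and 0.840 FPKM in cKO and 1.12 and 0.868 FPKM in control. Hist1h1a was at 0 and 0.412 FPKM in cKO and 0.242 and 0.136 FPKM in control, and Hist1h1t, the testis H1, was listed at 0 throughout. Together the 5 summed to 0.824 and 1.49 FPKM in cKO and 1.504 and 1.11 FPKM in control, overlapping.

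H1f0 and H1fx, which lie outside the clusters, carried most of the H1 FPKM in these libraries, which were captured by poly(A) tail. H1f0, the replacement H1 of differentiated cells, was at 70.3 and 68.7 FPKM in cKO and 67.97 and 63.4 FPKM in control (log2 fold change 0.08, limma adjusted p = 0.827). H1fx, which encodes H1x, was at 54.8 and 46.2 FPKM in cKO and 28.1 and 51.4 FPKM in control (log2 fold change 0.40, limma adjusted p = 0.200), overlapping because control 2 lay between the cKO libraries. Of the FPKM of all H1 genes, Hist1h1c made up 17.7% and 15.1% in cKO and 8.50% and 7.02% in control, without overlap.

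In the H2A class, Hist3h2a was the leading gene and Hist2h2ac the one that fell; both encode core H2A of the nucleosome. Hist3h2a was at 9.49 and 8.45 FPKM in cKO and 8.41 and 9.51 FPKM in control, with both cKO libraries between the controls. Its log2 fold change was 0.00 (95% interval -0.30 to 0.31, limma adjusted p = 0.997). Hist2h2ac was at 0.478 and 0.317 FPKM in cKO and 0.716 and 4.57 FPKM in control. Both cKO libraries were below both controls, but control 2 stood apart from the other 3 libraries. The log2 fold change of -1.15 ± 0.25 (SE) passed limma (adjusted p = 0.00162) through that library: without control 2 its mean fell under 1 FPKM and it was not tested. With robust moderation, which lets genes with an outlying spread keep it, the adjusted p was 0.579, and over 14 alternatives it ran from 3.72e-26 to 0.579, with 7 not past the threshold. Its coverage was 0.761 and 0.724 in cKO and 1.06 and 3.28 in control, less than 4 bases deep in any library. Control 2 also held the erythroid RNA given above, with Hba-a2 at 2.04 and 0.583 FPKM in cKO and 0.988 and 86.6 FPKM in control. Hbb-b1 and Alas2 were likewise highest in control 2, and all 3 fell by limma. The other 3 genes tested on that list rose, among them Hba-a1 at 4.57 and 10.5 FPKM in cKO and 0.998 and 2.97 FPKM in control (limma adjusted p = 7.12e-06), so the list did not move in 1 direction. The part of blood cells in the Hist2h2ac value was not tested. The third gene by level, Hist1h2ae, was at 0.169 and 0.225 FPKM in cKO and 0.333 and 0.542 FPKM in control. The other 15 H2A genes averaged under 0.18 FPKM, and 8 of the 18 were listed at 0 throughout.

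The H2B class held the 2 most abundant members. Hist3h2ba was at 40.05 and 30.02 FPKM in cKO and 32.0 and 36.9 FPKM in control, with both controls between the cKO libraries (log2 fold change 0.01, 95% interval -0.33 to 0.35, limma adjusted p = 0.975). Hist1h2bc was at 23.4 and 20.3 FPKM in cKO and 21.7 and 29.97 FPKM in control, overlapping and highest in control 2 (log2 fold change -0.22, 95% interval -0.55 to 0.12, limma adjusted p = 0.453). These intervals are of the difference on the log2(FPKM + 1) scale and hold changes of up to about 1.28-fold up for Hist3h2ba and down to 0.682 of the control level for Hist1h2bc.

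Hist2h2be, an H2B gene on chromosome 3 known for expression outside of S phase, rose modestly. It was at 2.46 and 2.55 FPKM in cKO and 1.44 and 1.64 FPKM in control. The 2 cKO libraries were nearly equal and both lay above both controls, by 1.49-fold at the closest. The log2 fold change was 0.46 ± 0.15 (SE, limma adjusted p = 0.0472), close to the threshold, and the call was lost in 11 of 15 alternatives, with an adjusted p of up to 0.319. Among these were leaving out control 1 (0.141), cKO 1 (0.319) or cKO 2 (0.193), and the replicate number as a block (0.104). Hist1h2bg was at 0.686 and 0.782 FPKM in cKO and 0.862 and 2.08 FPKM in control. Both cKO libraries were below both controls, again with control 2 apart from the other 3 libraries. The change of -0.47 ± 0.18 (SE) did not pass (limma adjusted p = 0.0884). It did with robust moderation (0.0268), while with rows fitted one by one the adjusted p was 0.461. Without control 2 the mean of Hist1h2bg fell under 1 FPKM and the gene was not tested. Without control 1, which leaves control 2 as the only control, its log2 fold change was -0.83. The other 15 H2B genes averaged under 1 FPKM, led by Hist1h2ba, the testis H2B, at 0.513 and 1.52 FPKM in cKO and 1.06 and 0.383 FPKM in control.

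In H3, Hist2h3c2-ps was the one gene above 1 FPKM. Its deposited symbol marks a pseudogene, while the GENCODE transcript matched to it, under the symbol Hist2h3c2, is coding. The row of Hist2h3c2-ps overlaps Hist2h3c1 by 546 bases, so the 2 may share reads. Hist2h3c2-ps was at 1.54 and 1.83 FPKM in cKO and 1.88 and 3.10 FPKM in control, with cKO 2 just below control 1 and with control 2 highest (log2 fold change -0.36 ± 0.17, SE, limma adjusted p = 0.173). Hist1h3d averaged 0.509 FPKM over the libraries and Hist1h3e 0.0754 FPKM. In H4, Hist1h4i was at 2.87 and 1.83 FPKM in cKO and 2.05 and 2.32 FPKM in control, with both controls between the cKO libraries (log2 fold change 0.06, 95% interval -0.27 to 0.39, limma adjusted p = 0.870). Hist1h4h was at 0.415 and 1.02 FPKM in cKO and 0.143 and 1.49 FPKM in control, and Hist1h4d at 0.323 and 0.654 FPKM in cKO and 0 and 0.701 FPKM in control.

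Hist4h4, the single gene of the chromosome 6 cluster, was listed at 0 in both cKO libraries and at 0.650 and 0.686 FPKM in control. It was below the level limit; in the limma fit with no such limit it passed (adjusted p = 0.0103), where 22 genes rose and 33 fell over all. In control its level stood for 301.3 and 153.4 sequenced bases, so it rests on a handful of fragments.

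Core histone genes of neighbouring position could differ greatly in level. In the GENCODE annotation, 13 pairs of members are transcribed away from each other with starts at most 1000 bases apart, and 12 of them pair an H2A with an H2B gene, at a median distance over the 13 pairs of 268 bases. In 1 pair, Hist2h2ac and Hist2h2be, 239 bases apart, both genes were tested: the first fell and the second rose, with the limits given above. Hist1h2bc averaged 23.9 FPKM over the 4 libraries, while Hist1h2ac, 251 bases away, averaged 0.0997 FPKM. Members with near-identical or overlapping rows could not be separated firmly. The 2 rows of Hist1h2be, 2480 and 2506 bases long, traded places between libraries: the longer held 0.317 FPKM in cKO 1 and 0.000258 FPKM in cKO 2, against 0.506 FPKM in control 1 and 0.00192 FPKM in control 2, and the shorter held 0.0167 FPKM in cKO 1 and 0.382 FPKM in cKO 2, against 0.00456 FPKM in control 1 and 0.848 FPKM in control 2. Both rows of Hist1h2be also overlapped that of Hist1h1e, by 467 and 497 bases. Other overlapping rows joined Hist1h2ao with Hist1h2ap, Hist1h4m with Hist1h4n and Hist2h2aa1 with Hist2h2aa2.

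Few genes that sit among the histones were expressed at a level that could be tested. Of 51 other genes within the spans of the clusters, 4 were tested, of which 0 rose by limma, also at an unadjusted p under 0.05, and 1 fell. The one that fell was Zfp322a, a zinc finger gene, at 4.23 and 3.98 FPKM in cKO and 6.40 and 5.91 FPKM in control (log2 fold change -0.49, adjusted p = 0.0289), without overlap. Hfe, the hereditary haemochromatosis gene and the nearest tested neighbour at 27996 bases from Hist1h1c on mm9, was at 1.34 and 1.31 FPKM in cKO and 1.77 and 1.70 FPKM in control (limma adjusted p = 0.378). Both Hfe values in cKO lay below both in control, whereas Hist1h1c lay above.

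Replacement histones, which are made outside of S phase and mostly from polyadenylated mRNA, had far higher FPKM here than the clustered genes. Since the kit captures poly(A) tails, mRNA of the clustered genes that ends in a stem-loop is mostly left out of this comparison. The list of 11, with H1f0 and H1fx, summed to 785.0 and 729.6 FPKM in cKO and 660.3 and 698.4 FPKM in control. By limma 0 passed the test, although both cKO sums were above both control sums, and 9 of 11 fold changes were above 0 with a median of 0.20. At an unadjusted p under 0.05 stood H2afy2, a macroH2A gene (log2 fold change 0.39, adjusted p = 0.1002), and H1fx. H3f3a, which encodes H3.3, was at 190.6 and 184.5 FPKM in cKO and 185.1 and 194.3 FPKM in control, with the groups overlapping.

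**Figure D5:**
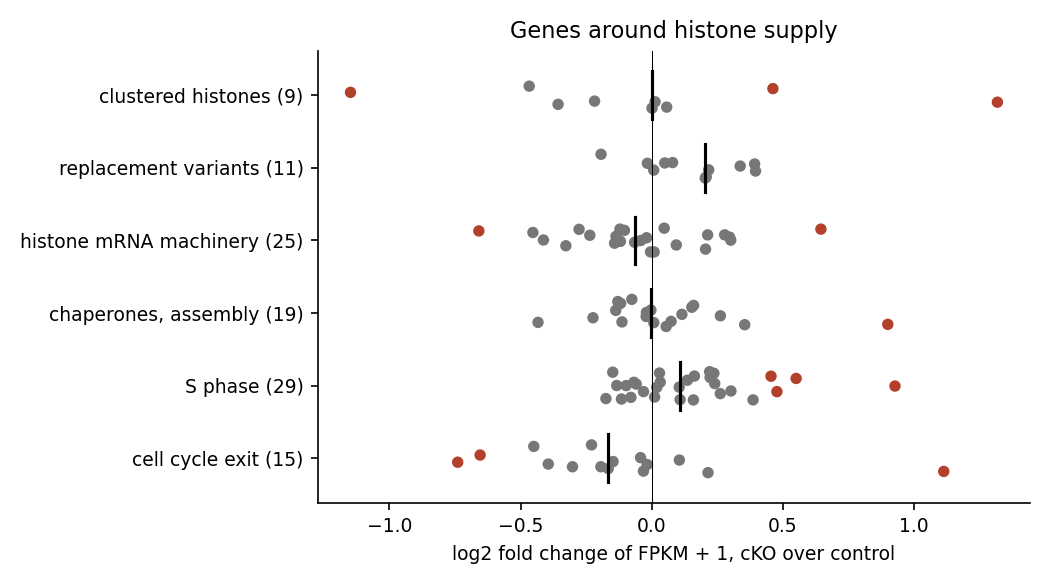
Log2 fold change of FPKM + 1, cKO over control, for the tested genes of the clustered histones and of 5 related lists (number tested in brackets), 1 point a gene; red points had a limma adjusted p under 0.05 and black bars are list medians. The clustered histones span -1.15 to 1.32 around a median near 0, and the S phase list has 4 red points, all above 0.

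Of 25 tested genes that make or end histone mRNA, 1 rose and 1 fell by limma, a share close to the 4.13% and 6.54% over all genes (1 higher and 4 lower at an unadjusted p under 0.05). Lsm11, a subunit of the U7 particle that cuts histone mRNA, rose, at 30.3 and 28.3 FPKM in cKO and 19.8 and 17.1 FPKM in control (log2 fold change 0.65 ± 0.16, SE, limma adjusted p = 0.00488). Nfya, a subunit of the CCAAT-binding factor NF-Y, fell, at 3.10 and 2.82 FPKM in cKO and 5.46 and 5.03 FPKM in control (log2 fold change -0.66 ± 0.15, SE, limma adjusted p = 0.00274). Neither gene's groups overlapped, and the calls were lost in 5 of 16 alternatives for Lsm11 and 3 of 15 for Nfya. Slbp itself was at 20.02 and 18.4 FPKM in cKO and 18.7 and 17.1 FPKM in control, overlapping, and Npat, the coactivator of clustered histone genes, was at 2.64 and 3.84 FPKM in cKO and 5.16 and 4.35 FPKM in control (limma adjusted p = 0.0600). Of 19 chaperone and assembly genes, 1 rose and 0 fell (2 and 1 at an unadjusted p under 0.05 by limma). The one that rose was Hjurp, which places the centromeric H3 variant, at 7.47 and 6.97 FPKM in cKO and 4.69 and 2.41 FPKM in control (log2 fold change 0.90, limma adjusted p = 3.33e-04, lost in 4 of 16 alternatives).

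Genes of DNA replication and division rose in 4 of 29 tested cases and fell in 0 (5 and 0 at an unadjusted p under 0.05 by limma), with 20 fold changes above 0 and a median of 0.11. Mcm6, a subunit of the replicative helicase, was at 9.33 and 7.75 FPKM in cKO and 4.08 and 3.92 FPKM in control (log2 fold change 0.93 ± 0.15, SE, limma adjusted p = 3.79e-05). Rrm2, a subunit of ribonucleotide reductase, was at 7.55 and 7.55 FPKM in cKO and 4.80 and 4.86 FPKM in control (log2 fold change 0.55, limma adjusted p = 0.0115). Both were higher in each cKO library than in each control. Cdt1, which licenses replication origins, and Lig1, the replicative DNA ligase, passed narrowly (limma adjusted p = 0.0494 and 0.0453). The Cdt1 call was lost in 10 of 15 alternatives (up to 0.724) and the Lig1 call in 12 of 16 (up to 0.549), the replicate block among them (0.094 and 0.119), against 3 of 16 for Mcm6 and 6 of 16 for Rrm2. Of 15 genes of cell cycle exit, 1 rose and 2 fell. Cdkn1a, the inhibitor p21, rose to 17.6 and 19.1 FPKM in cKO, against 8.74 and 7.23 FPKM in control (log2 fold change 1.11, limma adjusted p = 1.96e-06). Cdkn1c, the inhibitor p57, fell to 19.4 and 26.2 FPKM in cKO, against 32.5 and 45.2 FPKM in control (limma adjusted p = 0.00341), as did Ccng2, an atypical cyclin (limma adjusted p = 0.00300). Those 3 calls were lost in 2, 6 and 4 of 16 alternatives. These lists were drawn up with earlier results of the same data known.

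Markers of several cell types differed between the genotypes beside these genes. Of 10 markers of myelinating oligodendrocytes, 9 fell and 0 rose (the same counts at an unadjusted p under 0.05), with a list sum of 6624 and 10364 FPKM in cKO and 16168 and 18454 FPKM in control, so that cKO 1, the library with the most Hist1h1c, had the least myelin RNA. Of 6 precursor markers, Cacng4 rose and Gpr17, a marker of cells about to differentiate, fell. The Cacng4 call (limma adjusted p = 0.0398) was lost in 10 of 16 alternatives (up to 0.192), with every left-out library (from 0.108) and the replicate block (0.107) among them, while Gpr17 was never lost. The list sum was 158.1 and 186.8 FPKM in cKO and 229.3 and 222.3 FPKM in control. Gpr17 alone held 32.9 and 39.4 FPKM of it in cKO and 107.5 and 114.3 FPKM in control. Of the 6 fold changes, 5 were above 0, with a median of 0.18, so the lower sum in cKO does not describe the list. Of 10 neuronal markers 1 rose, Slc32a1 (limma adjusted p = 0.0349), a call lost in 10 of 16 alternatives (up to 0.671, without cKO 1; 0.0761 with the replicate block). At an unadjusted p under 0.05, 4 were higher and 0 lower, 10 of 10 fold changes were above 0, and the sum was 1695 and 1391 FPKM in cKO and 1177 and 1085 FPKM in control. Of 7 astrocyte markers 1 rose, Slc1a3, a call lost in 8 of 16 alternatives (1 higher and 2 lower at an unadjusted p under 0.05). Of 8 microglial markers 1 rose and 3 fell (the same counts at an unadjusted p), and of 5 endothelial markers 0 changed by limma, with 1 lower at an unadjusted p under 0.05. Their sums were 1428 and 1840 FPKM in cKO and 1796 and 2002 FPKM in control for astrocytes, 100.9 and 99.2 FPKM in cKO and 113.0 and 116.7 FPKM in control for microglia, and 81.3 and 59.3 FPKM in cKO and 73.3 and 77.6 FPKM in control for endothelium. Schwann cell markers, among them Sox10, which oligodendrocytes also express, fell in 4 of 4 tested (sum 55.5 and 69.8 FPKM in cKO and 172.2 and 114.7 FPKM in control) and meningeal markers in 7 of 8. No marker on these lists was at 0 in all 4 libraries, and the part of cell content in the Hist1h1c rise was not tested.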

How the data were processed

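The authors deposited a table per library with FPKM and with coverage, the mean depth per base of a transcript, per the file headers. Per the submitters' processing notes, CASAVA, TopHat, Cufflinks and Cuffdiff were used with the mm9 build; versions and settings are not given there. FPKM were summed per gene symbol over rows of at least 300 bases whose status was OK in every library, since 315 of 28107 rows had another status. Of the 68 histone genes, 4 had such a row and 2, Hist1h2ap and Hist2h2aa2, had no other. Genes with a mean of at least 1 FPKM were tested on log2(FPKM + 1) with limma 3.58.1 in R 4.3.3 (empirical Bayes with a mean-variance trend, Benjamini-Hochberg adjustment over all 12913 genes, threshold 0.05). The fit used 36.3 prior and 2 residual degrees of freedom, so its spread, a median SD of 0.156 on the log2 scale, is mostly pooled over genes. The pseudocount understates the change of low genes. No count model was used, since FPKM are not counts, and the sources give no read totals. Summed over all rows, coverage times length came to 1314 and 1818 megabases in cKO and 1218 and 582 megabases in control. The smallest p that an exact two-sided permutation test can give for 2 against 2 libraries is 0.333, so none was run. The code of the fit was run on simulated data with known changes as a check of the script, which is no evidence about these libraries. Named genes were every member that passed the test or the 1.5-fold rule, the 3 highest members of each class with up to 2 of smallest p, and from each related list the genes that passed or up to 2 of smallest p; a few others complete a small count. Members, lists and the summing of rows were chosen with earlier results of these data known. Coordinates of genes are those deposited on mm9, with starts counted from 1. Sequences come from GENCODE M21 and RefSeq tables of other builds, joined by symbol or accession: 67 members had a transcript and 62 a promoter.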

Additional observations from a re-analysis of the deposited data

How the results depend on the processing

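The median log2 fold change of the clustered histone genes, 0.0013, was -0.25 with TPM scaling, under which 18 of them were tested, and ran from -0.19 without cKO 1 to 0.097 without control 2. In the other settings it moved by less than the SD between replicate libraries, 0.170. The number of them that rose, 2, was 1 with a pseudocount of 0.1, no filter on low values, a minimum of 5 FPKM, all rows summed, TPM scaling, median-of-ratios scaling, no mean-variance trend or the replicate block, 0 with rows fitted one by one, and 1 to 2 when a library was left out. The number that fell, 1, was 0 with a minimum of 5 FPKM, all rows summed, rows fitted one by one, TPM, median-of-ratios or quantile scaling, and 0 to 3 when a library was left out. Where it stayed at 1 the gene could differ: it was Hist1h2bg (limma adjusted p = 0.0268) with robust moderation, where Hist2h2ac was lost (0.579), and Hist4h4 with no filter. Without control 1, the log2 fold change was -1.997 for Hist2h2ac, -0.83 for Hist1h2bg and -0.61 for Hist2h3c2-ps, with control 2 as the only control. Without control 2, Hist2h2ac and Hist1h2bg had a mean under 1 FPKM and were not tested, and that of Hist2h3c2-ps was -0.10.

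Over all genes, the 533 that rose became 22 with no filter, 23 with all rows summed, 5 with rows one by one, 198 with TPM and 310 with quantile scaling, and 107 (without cKO 1) to 555 when a library was left out. The 845 that fell became 33, 30, 13, 402 and 426 in those settings, 550 with median-of-ratios scaling, and 277 (without cKO 1) to 900. Beyond 1.5-fold above lay 4 histone genes with no filter, against 1, and 1 to 2 with a library left out. Beyond 1.5-fold below lay 2 with no filter and 1 with TPM, against 0, and 0 to 3 with a library left out. Above both controls lay 5 with no filter and 1 at 5 FPKM, against 2, and 2 to 4 with a library left out. Below both lay 9 with no filter, 0 at 5 FPKM and 6 with TPM, against 3, and 1 to 6 with a library left out. These counts are of 51 histone genes with no filter, 18 with TPM and 4 at 5 FPKM, against 9 in the main setting. The share over all genes was taken in the main setting only, so they are no result about the members. With no filter, Hist1h1b, Hist1h2ab and Hist2h4 lay above with 0 in both controls, and Hist1h4m and Hist4h4 lay below with 0 in both cKO libraries. A higher minimum and a left-out library change which genes and libraries enter. For the other settings the cause was not tested. Hba-a2 turned from lower to higher in cKO without control 2 (log2 fold change 0.14, limma adjusted p = 0.682; -5.32 without control 1).

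Across genes, deviations of same-numbered libraries from their group means correlated at -0.24. With 2 libraries a group, the other pair mirrors the first, so this value cannot show whether the replicate numbers paired the libraries. With the replicate block, 351 genes rose and 645 fell. A block with crossed numbers, added after seeing the data, gave 943 that rose and 1235 that fell. Without a given library, an arm of 1 sample is assumed to vary like the other arm. Depth limits what can be said of the 59 histone genes under 1 FPKM, and duplicate libraries limit the rest.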
